A study of Mus musculus with 28 samples.

Results

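Tropifexor (LJN452) and obeticholic acid (OCA), agonists of the bile acid receptor FXR, were each tested in this mouse liver study against a vehicle group of their own. The 2 vehicle groups had the same strain, sex and diet and received no drug, so each can be set against the other. The comparison used the 4 mice of the tropifexor vehicle group (VEH_LJN452) and the 4 of the OCA vehicle group (VEH_OCA), 8 of the 28 mice, and the 15230 of 47719 listed genes that could be tested in both. For each gene, the log2 ratio of the OCA vehicle group to lean control was subtracted from that of the tropifexor vehicle group to lean control, so a positive difference means a higher level in the tropifexor vehicle group.

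All animals were male C57BL/6 mice, about 6 weeks old at the start. Both vehicle groups were fed a diet of 40% fat by calories, 22% fructose and 2% cholesterol by weight for 26 weeks to bring on nonalcoholic steatohepatitis (NASH), a fatty and inflamed liver with scarring, before 4 weeks of oral dosing. The 4 lean control mice ate a low-fat diet (10% of calories from fat) without fructose or cholesterol. That the vehicle animals ate the NASH diet was read from the study's design text. Their treatment field names the drug, whereas their titles say vehicle, and the titles were followed. The labels do not say whether the vehicle groups were housed, killed and sequenced together, so a batch and the group cannot be told apart.

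Poly(A) RNA of whole liver was sequenced. Levels are given in FPKM, fragments scaled to transcript length and library size. They are the authors' group values, 1 per group of 4 mice and none per animal. The depth of each library is unknown, and the variation among mice is reflected only in the error of the authors' test. The lean control group appears in both tables, with values that differed by a constant 0.00749 (log2), so levels of the 3 groups could be set side by side. The liver markers were in place: the sum of 11 secreted hepatocyte proteins was 63830 FPKM in the tropifexor vehicle group, 67946 FPKM in the OCA vehicle group and 92668 FPKM in lean control. Of 9 pancreas genes, 4 were at 0 in both vehicle groups, among them Prss1 and Pnlip, and 8 were under 1 FPKM in both. The sum of the 9 was 8.69 FPKM in the tropifexor vehicle group, 7.94 FPKM in the OCA vehicle group and 22.7 FPKM in lean control. The 3 that could be tested had positive differences, and none was called. Nnt, which is deleted in part in one C57BL/6 substrain, was at 20.3, 19.1 and 16.6 FPKM in the same order of groups, a difference between the vehicle groups of 0.08 (log2, 95% interval -0.26 to 0.42).

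Many liver genes follow feeding, hormone pulses and the hour of the day. Insulin and feeding raise lipid synthesis and glycogen genes. Pulses of growth hormone act through the JAK2 kinase and the transcription factor STAT5 and set the sex-biased genes of the liver. The nuclear receptors CAR and PXR control cytochrome P450 genes of drug metabolism, and interferons induce a shared set of antiviral genes.

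Of the protein-coding genes that passed the test, Capn11, Cish and Onecut1 had the largest positive differences between the tropifexor vehicle group and the OCA vehicle group, and Angptl8, Cyp26a1 and Cyp2b9 the largest negative ones. At an adjusted p under 0.05, 58 genes, 0.381% of the 15230 tested, were called different. Of these, 28 (0.184%) were higher in the tropifexor vehicle group and 30 (0.197%) were lower. Protein-coding genes made up 31 of the calls, 0.241% of the 12849 tested, 13 higher and 18 lower. The adjusted p came from a normal test of the difference, with Benjamini-Hochberg adjustment over all genes. Each gene's error came from its deposited test statistic. It was rescaled by a single factor per table that matches the deposited p-values at the median, so a gene's own p was not used. Of the 58 genes, 22 were called against lean control in neither vehicle group by the authors' deposited tables. Without the rescaling, errors were about 2.03 times as wide. With those, 15 genes (0.0985%) were called, of which only Onecut1, Plk3 and Cyp2b9 were protein-coding. The others include Mir6392, Snord72 and Ighj4, which the authors' deposited tables called against lean control in neither vehicle group. For these 3 even the wider errors are smaller than the deposited q-values imply. With the rescaled errors, the count at an unadjusted p under 0.05 was 276 (1.81%). This is below the share that such a threshold gives by chance, so the errors are too wide for most genes. A gene that was not called may therefore still differ. With the variance of the lean control left out, since that group cancels in the difference, 114 of 14184 genes were called, and 19 of the 50 gene lists held a call, against 9 with it included. In the plot of differences by expression level, the called protein-coding genes spanned levels from that of Cxcl13 to that of Cyp2c29.

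**Figure D1:**
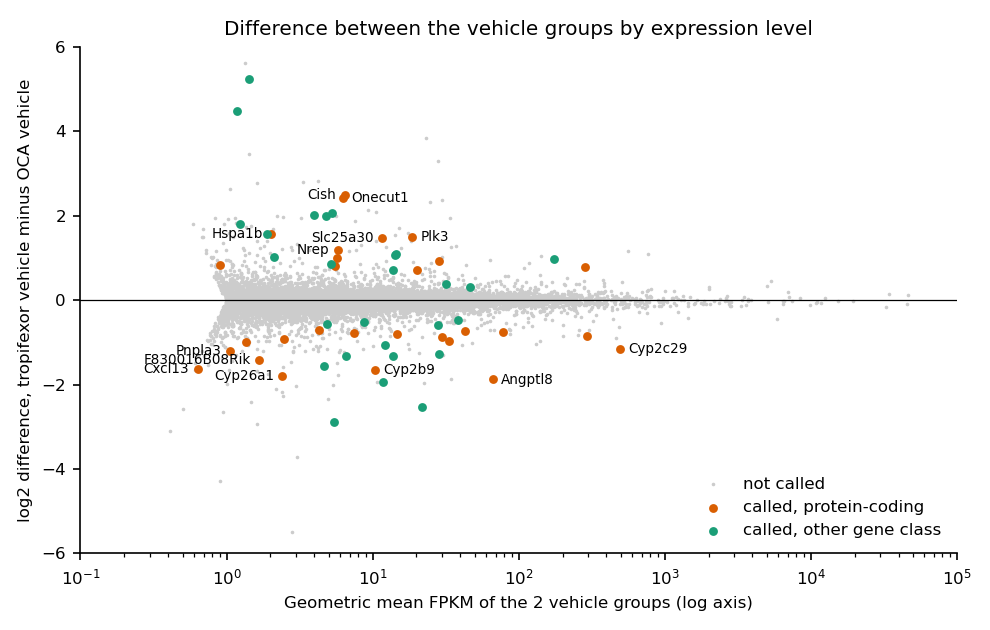
Each point is a gene with at least 1 FPKM in a vehicle group; the x axis is the geometric mean FPKM of the 2 vehicle groups on a log axis and the y axis the log2 difference, tropifexor vehicle minus OCA vehicle. Called genes are coloured by class, those protein-coding genes with the larger differences are named, and 14 genes outside the axes, none of them called, are not drawn; the share past 2-fold was 1.78% of genes at 1 to 10 FPKM, 1.34% at 10 to 100 FPKM and 0.832% at 100 FPKM or more.

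Of the 12169 genes with at least 1 FPKM in a vehicle group, 190 (1.56%) differed by more than 2-fold between them, 95 in each direction, and the median size of a difference was 0.10 (log2). Protein-coding genes made up 41 of the 190 (0.372% of 11032), and small RNA genes 102 (37.4% of 273). Among genes of 100 FPKM or more, 6 of 721 were past 2-fold. For scale, and sharing the vehicle groups, the authors' deposited table of OCA over its vehicle had 349 genes (2.81%) past 2-fold. The authors' deposited tables of tropifexor over its vehicle had 1222 (9.55%) at the low dose, 1849 (15.0%) at the mid dose and 1658 (13.3%) at the high dose. Past 2-fold from lean control were 1203 genes (9.78%) in the tropifexor vehicle group and 1048 (8.49%) in the OCA vehicle group in the authors' deposited tables. The bars of genes past 2-fold show the vehicle difference as the shortest and that of OCA as the next.

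**Figure D2:**
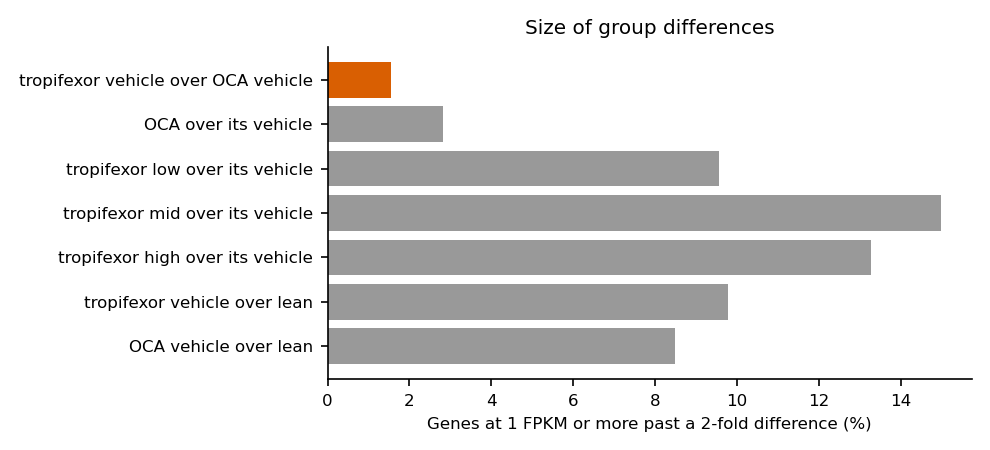
Bars give the percentage of genes at 1 FPKM or more that differed by more than 2-fold in each comparison of group values, from 0 on the x axis. The tropifexor vehicle over OCA vehicle bar reaches 1.56%, OCA over its vehicle 2.81% and the 3 tropifexor doses over their vehicle 9.55% to 15.0%.

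In 23 of the 31 called protein-coding genes the tropifexor vehicle group lay farther from lean control than the OCA vehicle group did (74.2%), beside 58.8% of the 12849 protein-coding genes tested. The plot of levels and differences shows all 31.

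**Figure D3:**
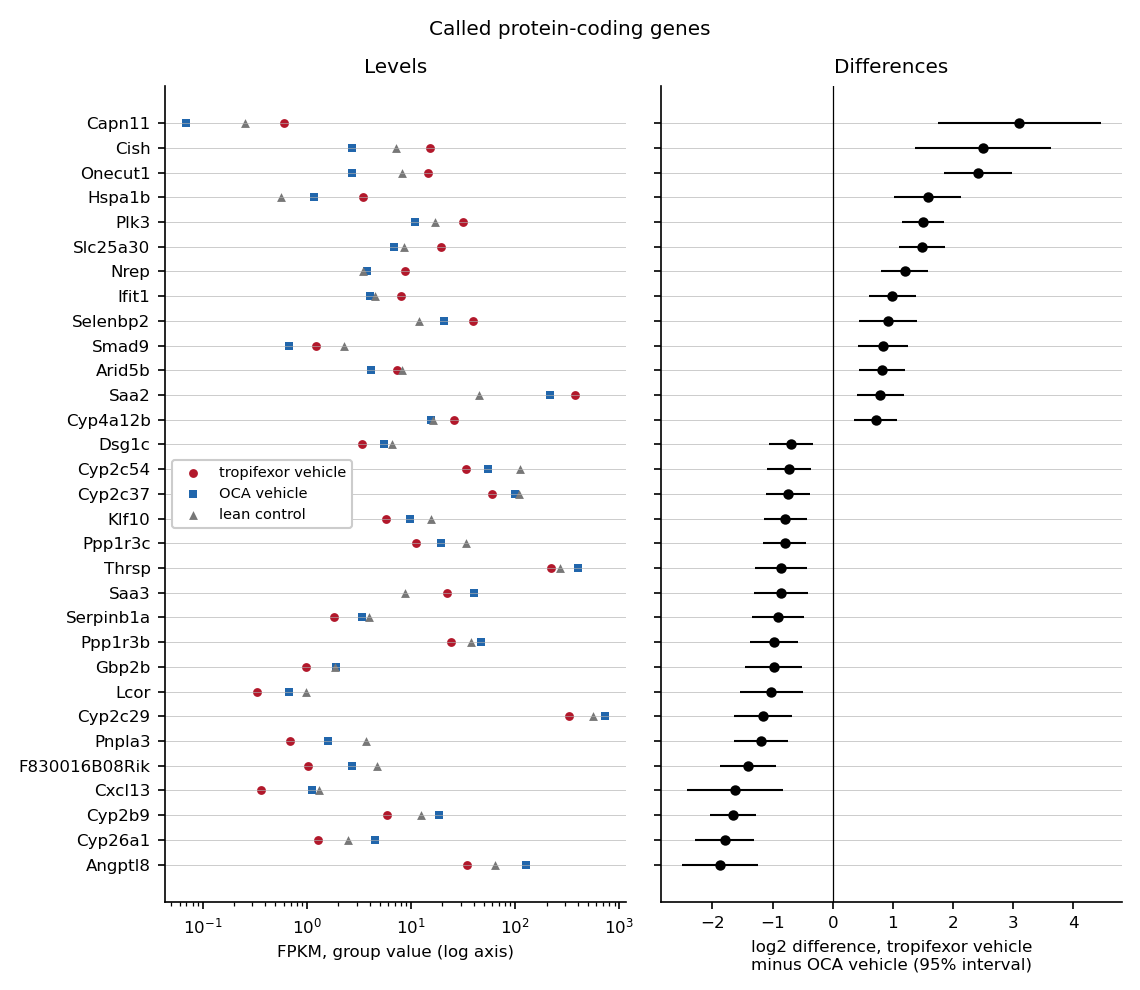
The 31 called protein-coding genes, ordered by difference. The left panel gives the FPKM of each group on a log axis (circles tropifexor vehicle, squares OCA vehicle, triangles lean control), and the right panel the log2 difference with its 95% interval; 13 genes lie right of 0 and 18 left of it.

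Among the genes of growth hormone signalling, 1 was called. Cish, a STAT5-induced inhibitor of cytokine and growth hormone receptors, was at 15.4 FPKM in the tropifexor vehicle group, 2.71 FPKM in the OCA vehicle group and 7.24 FPKM in lean control. It was 5.64-fold higher in the tropifexor vehicle group than in the OCA vehicle group, a difference of 2.50 (log2, 95% interval 1.36 to 3.63). It lies on GRCm38 chromosome 9 at 107296026 to 107302784 on the plus strand, and antisense models overlap it, so its level is uncertain to the extent that strand was not used in counting. Of the 10 genes on the list, 4 had positive and 6 negative differences, with 1 call, and the median was -0.03, against -0.01 over all genes tested. Socs2, another STAT5 target, had 4.96 FPKM in the tropifexor vehicle group and 3.13 in the OCA vehicle group (difference 0.66, interval 0.04 to 1.27, not called). Bcl6, a repressor that growth hormone lowers in male mouse liver, had 8.34 and 12.9 FPKM in the same groups (difference -0.64, interval -1.04 to -0.24), and was called only with the lean variance left out. Ghr, the growth hormone receptor, and Igf1, the hormone it induces, differed by -0.09 and -0.01, neither called.

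Because Cish is a classical STAT5 target, its promoter is shown from RefSeq for build GRCm38.p6, chromosome 9, positions 107296559 to 107296683 on the plus strand, from 100 bases before the RefSeq start to 25 after it. This start lies inside the GENCODE gene model given above, whose start is farther upstream. Capitals mark matches to TTCNNNGAA, the palindromic STAT motif, which reads the same on both strands. There were 2 matches, which begin at bases 1 and 12 after the start.
Cish: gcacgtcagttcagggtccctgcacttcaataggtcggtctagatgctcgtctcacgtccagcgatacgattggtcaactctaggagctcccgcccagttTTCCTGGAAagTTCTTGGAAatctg
Of 32851 RefSeq promoter windows of 300 bases, 2726 (8.30%) hold the motif at least once. A match is a description of the letters and not evidence of binding.

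Sex-biased genes held 1 call of each sign. Of 12 female-biased genes only 7 could be tested, and 7 of the 12 were under 1 FPKM in both vehicle groups. Of the 7 tested, 6 had negative differences and 1 fell, with a median of -0.62. The one that fell was Cyp2b9, a female-biased P450 that the CAR receptor also controls, at 5.89 FPKM in the tropifexor vehicle group, 18.5 FPKM in the OCA vehicle group and 12.5 FPKM in lean control (difference -1.65, interval -2.04 to -1.27). The related Cyp2b13 had 0.342 and 1.07 FPKM and Cyp2a4 0.983 and 2.03 FPKM in the tropifexor and OCA vehicle groups, with neither called, and these P450 genes have close copies that the counting could have mixed. Of 12 male-biased genes 7 had positive and 5 negative differences, with a median of 0.06. Cyp4a12b, a male-biased fatty acid hydroxylase, rose to 25.9 FPKM in the tropifexor vehicle group, against 15.7 FPKM in the OCA vehicle group and 16.4 FPKM in lean control, a difference of 0.71. Its near-identical neighbour Cyp4a12a had 44.2 and 35.9 FPKM in the vehicle groups (difference 0.29, interval -0.09 to 0.67, not called).

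Xenobiotic P450 genes were lower in value throughout. All 18 tested genes of the list of P450 genes and their partners had negative differences, with a median of -0.41 beside -0.01 over all genes tested, of which 7911 were negative and 7319 positive. Of the 18, 3 fell and 15 did not pass the test. Cyp2c29, an abundant arachidonic acid epoxygenase, was at 329.8 FPKM in the tropifexor vehicle group, 732 FPKM in the OCA vehicle group and 559 FPKM in lean control (difference -1.16, interval -1.64 to -0.68). Cyp2c37 was at 60.1, 100.4 and 107.6 FPKM in the same order (difference -0.75), and Cyp2c54 at 33.6, 55.3 and 110.5 FPKM (difference -0.73); both belong to the same gene cluster on chromosome 19. Cyp2b10, the classical CAR target, was at 0.379 FPKM in the tropifexor vehicle group and 2.36 FPKM in the OCA vehicle group against 0.0896 FPKM in lean control, but its interval for the difference of -2.64 ran from -4.38 to -0.91 and it was not called. Cyp1a2, a target of the aryl hydrocarbon receptor, had 85.4 and 132.9 FPKM (difference -0.65, not called), and Cyp3a11, the main PXR target, 1127 and 1361 FPKM (difference -0.28, not called). The members are not independent, since CYP2C genes share sequence and neighbourhood.

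Pnpla3 and Thrsp fell among the lipogenic genes. Of 16 fatty acid synthesis genes 2 fell and 14 were not called, with 10 negative and 6 positive differences and a median of -0.20. Pnpla3, a lipase of lipid droplets, was at 0.695 FPKM in the tropifexor vehicle group, 1.59 FPKM in the OCA vehicle group and 3.68 FPKM in lean control (difference -1.20, interval -1.65 to -0.75). Thrsp (Spot 14), a lipogenic protein, was at 219.8, 396.5 and 269.3 FPKM in the same order (difference -0.86, interval -1.29 to -0.42). Srebf1, the transcription factor that insulin raises, had 342 and 632 FPKM in the tropifexor and OCA vehicle groups, and Fasn, the fatty acid synthase, 238 and 384 FPKM. Neither passed the test, with intervals of -1.89 to 0.10 and -2.10 to 0.71, and Scd1, the stearoyl-CoA desaturase, lay the other way at 5636 and 4427 FPKM (difference 0.34). Outside the lists, 2 glycogen genes fell. Ppp1r3b was at 23.9 FPKM in the tropifexor vehicle group, 46.8 FPKM in the OCA vehicle group and 38.0 FPKM in lean control (difference -0.97, interval -1.37 to -0.58), and Ppp1r3c at 11.2, 19.4 and 33.7 FPKM (difference -0.79). Both encode subunits that bring protein phosphatase 1 to glycogen.

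Angptl8, a feeding-induced secreted inhibitor of lipoprotein lipase, had the lowest difference of the called protein-coding genes. It was at 34.8 FPKM in the tropifexor vehicle group, 127.0 FPKM in the OCA vehicle group and 63.3 FPKM in lean control (difference -1.88, interval -2.51 to -1.25). It overlaps Dock6 on the opposite strand. It was the only one of 12 hepatokine genes called; 8 of the 12 differences were negative, with a median of -0.17. The fasting list gave no uniform direction: 10 of 16 differences were positive, none was called and the median was 0.13. G6pc, glucose-6-phosphatase, was lower in value (68.6 and 109.5 FPKM, difference -0.68, not called), and Igfbp1, which insulin represses, was higher in value (16.7 and 11.5 FPKM, difference 0.52, not called) in the tropifexor than in the OCA vehicle group. Apoa4, an apolipoprotein of lipid transport, had 1128 FPKM in the tropifexor vehicle group and 528 FPKM in the OCA vehicle group, a difference of 1.09 (interval 0.50 to 1.67) that was not called. With the lean variance left out, Apoa4 was called higher, and the fasting list held 4 calls: Igfbp1 and Irs2 higher, G6pc and Cyp4a14 lower.

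Lipid droplet genes had mostly positive differences without a call. Of 12 tested lipid droplet genes 9 had positive differences, with a median of 0.27, and none was called. Fabp4, a fatty acid carrier, had 26.7 and 18.8 FPKM, Plin2, the lipid droplet coat protein, 451 and 323 FPKM, and Cidec, which fuses droplets, 76.7 and 56.5 FPKM in the tropifexor and OCA vehicle groups. Fabp4 was called with the lean variance left out. Of 14 fatty acid oxidation genes 13 had positive differences with a median of 0.12, and none was called. Of 22 cholesterol synthesis and uptake genes 12 were positive, with a median of 0.05 and none called.

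Cyp26a1, which degrades retinoic acid, was at 1.29 FPKM in the tropifexor vehicle group, 4.48 FPKM in the OCA vehicle group and 2.51 FPKM in lean control (difference -1.80, interval -2.28 to -1.31). Onecut1, the hepatocyte transcription factor HNF6 and a regulator of P450 and developmental genes, was at 14.6, 2.72 and 8.11 FPKM in the same order, 5.34-fold higher in the tropifexor than in the OCA vehicle group (difference 2.42, interval 1.85 to 2.98). Plk3, a stress-responsive polo-like kinase, was at 31.3, 11.0 and 16.9 FPKM (difference 1.50, interval 1.15 to 1.85), and its gene overlaps Tctex1d4 on the opposite strand. Capn11, a calpain protease best known from testis, had the largest difference of the protein-coding calls but the lowest level, 0.600, 0.0694 and 0.254 FPKM (difference 3.10, interval 1.75 to 4.46). It was under the minimum of 1 FPKM, was not called with the wider error, and could not be tested with the lean variance left out. Slc25a30, a mitochondrial carrier, was at 19.5, 6.93 and 8.48 FPKM (difference 1.48), and Nrep, a regulator of cell migration, at 8.76, 3.81 and 3.43 FPKM (difference 1.19).

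For 7 of the called genes the 2 vehicle groups lay on opposite sides of lean control, each called against lean by the authors' deposited tables, which called 20.6% of genes in the tropifexor vehicle group and 18% in the OCA vehicle group. Angptl8, Cyp26a1 and Cyp2b9 were lower than lean in the tropifexor vehicle group and higher in the OCA vehicle group; Plk3, Onecut1, Cish and Capn11 were higher in the tropifexor vehicle group and lower in the OCA vehicle group. The authors' deposited tables gave Onecut1 0.85 (log2 over lean) in the tropifexor vehicle group and -1.57 in the OCA vehicle group. The corresponding values for Cish were 1.09 and -1.41 in the authors' deposited tables, and for Angptl8 -0.86 and 1.01. These pairs of ratios share the lean control group.

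Each drug effect in this study has one of these vehicle groups as its denominator. Cish stood 2.34 (log2) above its vehicle in the OCA group in the authors' deposited table, and at 0.93 over lean control, beside 1.09 over lean in the undosed tropifexor vehicle group. Onecut1 stood 2.29 above its vehicle in the OCA group and 0.72 above lean, beside 0.85 above lean in undosed tropifexor vehicle mice, by the authors' deposited tables. Capn11 stood 2.51 above its vehicle and 0.65 above lean in the OCA group, beside 1.24 above lean in undosed tropifexor vehicle mice, again by the authors' deposited tables. Angptl8, too, stood in the OCA group on the side of the tropifexor vehicle group, at -0.36 over lean in the authors' deposited table. The other 3 genes stood in the OCA group on the side of its own vehicle: the authors' deposited tables gave Plk3 -0.44 over lean in OCA mice and -0.61 in their vehicle group, Cyp26a1 0.49 and 0.84, and Cyp2b9 0.14 and 0.57. For Plk3 the authors' deposited tables gave -2.36, -2.53 and -2.36 over the vehicle at the low, mid and high dose of tropifexor and 0.16 for OCA. Over lean control the low, mid and high doses stood at -1.46, -1.64 and -1.48 for Plk3, in the authors' deposited tables. Cyp2b9 fell by 5.71, 7.24 and 8.61 (log2) at the low, mid and high dose of tropifexor in the authors' deposited tables. These drug ratios contain the vehicle values compared here, so they are given side by side without a test. The plot of the 7 genes over lean control shows them in all 6 groups on the diet.

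**Figure D4:**
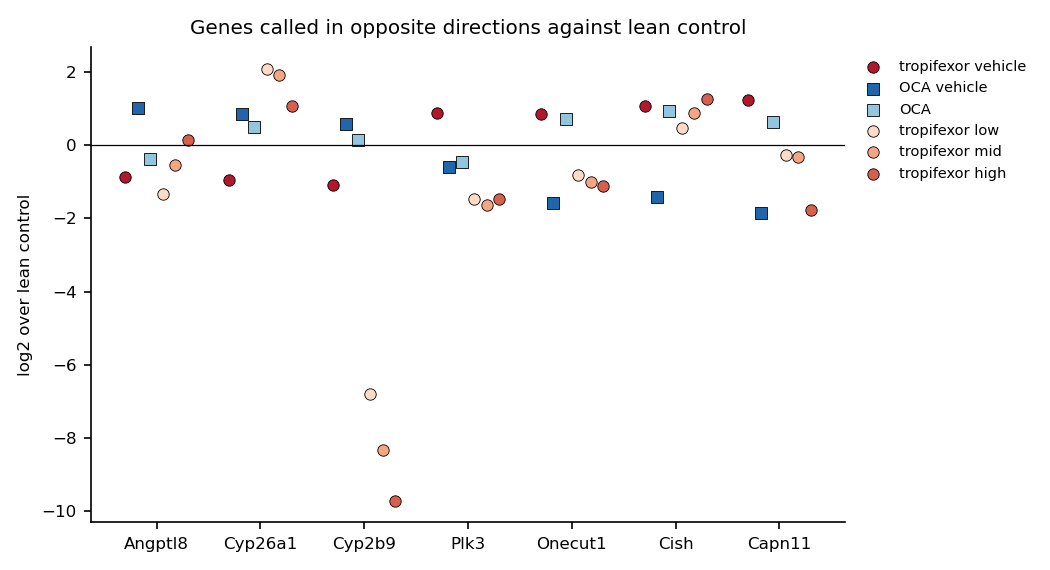
Log2 ratio to lean control of the 7 genes called in opposite directions in the 2 vehicle groups, from the authors' deposited tables: tropifexor vehicle and OCA vehicle first, then OCA and the low, mid and high doses of tropifexor. For Onecut1, Cish and Capn11 the OCA group stands above lean, as the tropifexor vehicle group does, while the OCA vehicle group stands below it; for Plk3, Cyp26a1 and Cyp2b9 the OCA group and its vehicle lie on the same side of lean.

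Interferon-stimulated genes had mostly positive differences, and 1 of 22 passed the test. Of the 22, 18 had positive differences, with a median of 0.49. Ifit1, an antiviral protein that binds foreign RNA, was at 8.03 FPKM in the tropifexor vehicle group, 4.02 FPKM in the OCA vehicle group and 4.53 FPKM in lean control (difference 0.99, interval 0.60 to 1.38). Usp18, which removes ISG15 from proteins, had 13.2 and 7.67 FPKM (difference 0.77), Mx2, an antiviral GTPase, 6.97 and 4.03 FPKM (difference 0.78), and Isg15 itself 19.6 and 12.7 FPKM (difference 0.61), in the tropifexor and OCA vehicle groups. None of these 3 was called. With the lean variance left out, 6 of the 22 were called higher and none lower. Gbp2, a guanylate-binding protein known to respond strongly to interferon gamma, had 9.55 FPKM in the tropifexor vehicle group and 13.2 FPKM in the OCA vehicle group (difference -0.48, not called). Outside the list, Gbp2b, another guanylate-binding protein, fell to 0.973 FPKM in the tropifexor vehicle group, against 1.91 FPKM in the OCA vehicle group (difference -0.98). Gbp11, annotated as a polymorphic pseudogene, rose to 10.8 FPKM, against 2.56 FPKM in the OCA vehicle group (difference 2.07), and guanylate-binding proteins have close copies that the counting could have mixed.

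The promoter of Ifit1 is shown from RefSeq for GRCm38.p6, chromosome 19, positions 34640764 to 34640888 on the plus strand, the stretch just before the RefSeq start. Capitals mark the interferon response element, searched as GAAA, any 2 bases and GAAA on both strands. Here it lies on the opposite strand and so reads TTTC, 2 bases and TTTC. The 2 matches begin 104 and 85 bases before the start.
Ifit1: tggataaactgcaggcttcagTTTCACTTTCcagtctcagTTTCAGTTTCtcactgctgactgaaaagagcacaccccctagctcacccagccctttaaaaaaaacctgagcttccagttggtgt
Of the same 32851 windows of 300 bases, 1131 (3.44%) hold this motif on either strand.

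Markers of T and NK cells, which make interferon gamma, were lower in value. Of 13 genes 10 had negative differences, with a median of -0.54, and none was called. Of the 13, 7 were under 1 FPKM in both vehicle groups. Their summed level was 34.2 FPKM in the tropifexor vehicle group, 53.7 FPKM in the OCA vehicle group and 12.7 FPKM in lean control. Ccl5, a chemokine of T and NK cells and most of that sum, had 20.3, 34.7 and 4.67 FPKM in the same order (difference -0.78, interval -1.33 to -0.24, not called), and Cd3g, a chain of the T cell receptor complex, 2.63, 4.79 and 2.08 FPKM. Ccl5 was called lower with the lean variance left out. Outside the list, the T cell gene Themis was called higher in that setting, at 5.94, 4.09 and 0.423 FPKM in the same order (difference 0.53). In whole liver, fewer cells of a type and less RNA per cell cannot be told apart. Cxcl13, the chemokine that attracts B cells, fell to 0.363 FPKM in the tropifexor vehicle group, against 1.11 FPKM in the OCA vehicle group and 1.30 FPKM in lean control (difference -1.62, interval -2.41 to -0.83). Its level is low in both. Of 9 neutrophil genes only 4 were tested, none was called, and the sum was 9.48, 15.5 and 6.87 FPKM in the tropifexor vehicle, OCA vehicle and lean groups. Of 17 macrophage genes 12 had negative differences, with a median of -0.09, and none was called; their sums were 603, 629 and 296 FPKM in the same order. Of 7 tested B and plasma cell genes 4 were negative and none was called. The part of these cell markers in the interferon and Gbp2b differences was not tested.

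Acute phase genes, which the liver makes under inflammatory cytokines, had a median of -0.02 over 19 genes, with 1 that rose and 1 that fell. The serum amyloid genes parted: Saa2 rose to 377.9 FPKM in the tropifexor vehicle group, against 217.8 FPKM in the OCA vehicle group and 45.3 FPKM in lean control (difference 0.79, interval 0.40 to 1.18). Saa3 fell to 22.3 FPKM, against 40.4 FPKM in the OCA vehicle group and 8.83 FPKM in lean control (difference -0.86, interval -1.32 to -0.41); its call was lost when the differences were centred on their median. Saa1, the close copy of Saa2, had 595 and 436 FPKM in the vehicle groups (difference 0.44, interval 0.03 to 0.85, not called). Hepatocytes make Saa1 and Saa2, while Saa3 is also made by macrophages and fat cells.

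Heat shock proteins all had positive differences. Of 8 tested genes 8 were positive, 1 rose and 7 were not called, with a median of 0.38. Hspa1b, the stress-induced chaperone HSP70, was at 3.50 FPKM in the tropifexor vehicle group, 1.17 FPKM in the OCA vehicle group and 0.567 FPKM in lean control (difference 1.58, interval 1.02 to 2.14). Its near-identical copy Hspa1a, at 0.266 and 0.120 FPKM in the vehicle groups, was not tested, so the split of reads between them is uncertain. Hspb1, a small heat shock protein, had 16.8, 11.5 and 3.92 FPKM (difference 0.54, not called), and Hsph1, a partner of HSP70, 27.2, 17.6 and 11.7 FPKM (difference 0.62, not called).

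Circadian, matrix, cell cycle and bile acid lists held no call in either direction with the lean variance included. Of 20 circadian genes 17 had negative differences, with a median of -0.20; Ciart, a repressor of the clock, had 3.31 FPKM in the tropifexor vehicle group and 6.10 FPKM in the OCA vehicle group (difference -0.89, interval -1.62 to -0.16), and Nr1d1, the clock repressor REV-ERB alpha, 43.9 and 48.3 FPKM. Of 24 extracellular matrix genes, the scar tissue of NASH, 21 had positive differences, with a median of 0.19. Col1a1, a chain of type I collagen, had 13.1, 9.53 and 1.47 FPKM in the tropifexor vehicle, OCA vehicle and lean groups (difference 0.45, interval -0.12 to 1.03). Of 11 tested cell cycle genes 11 had positive differences, with a median of 0.34, and Ccnb2, a mitotic cyclin, had 1.71, 0.955 and 0.540 FPKM (difference 0.83, not called). The median of 10 bile acid synthesis genes was 0.04. Cyp7a1, the rate-limiting enzyme, had 47.8, 43.0 and 8.94 FPKM (difference 0.15, interval -1.01 to 1.31). Of 12 tested bile acid transport and FXR genes 7 were negative, with a median of -0.10; Nr0b2, the FXR-induced repressor SHP, had 28.4, 40.7 and 43.3 FPKM (difference -0.53, interval -0.88 to -0.17, not called). With the lean variance left out, Ccnb2 was called higher, and Ciart, Nr0b2 and Abcc4, an efflux transporter, were called lower. The plot of list members shows which single genes passed the test. No test was run on a list as a whole.

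**Figure D5:**
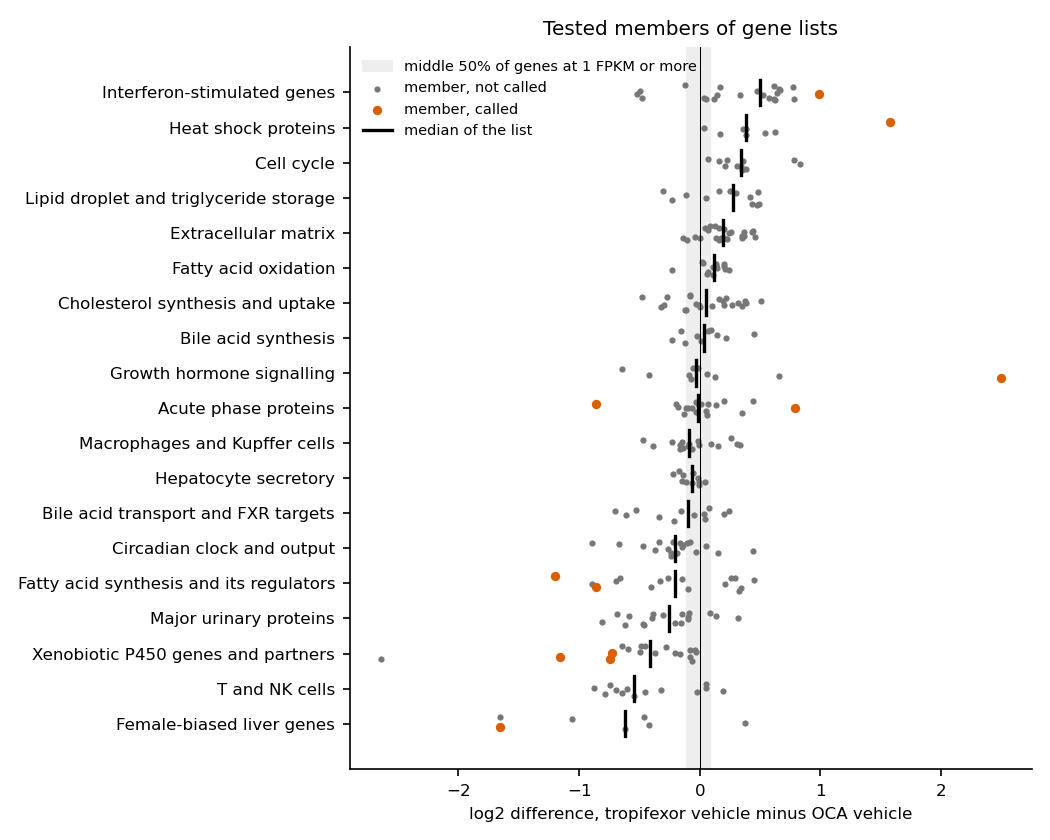
Each point is a tested member of a gene list, at its log2 difference, tropifexor vehicle minus OCA vehicle; orange points were called, black bars are list medians and the grey band holds the middle 50% of genes at 1 FPKM or more. All 18 xenobiotic P450 genes lie left of 0, and all 8 heat shock and 11 cell cycle genes right of it.

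Calls outside protein-coding genes comprised 16 small RNA genes, 7 pseudogenes, 3 immunoglobulin segments and 1 other gene. Of genes whose longest transcript is under 200 bases, 21 of 327 (6.42%) were called, against 37 of 14903 (0.248%) of the others. Of these 21 short genes 16 lie inside a longer gene, so reads of the host can be counted to them. Mir6392 had 2.00 FPKM in the tropifexor vehicle group and 14.8 FPKM in the OCA vehicle group (difference -2.89) and lies inside Pnpla3. Snord72, a small nucleolar RNA, had 9.14 and 52.9 FPKM in the same groups (difference -2.54) and lies inside the ribosomal protein gene Rpl37. Ighj4, a joining segment of the antibody heavy chain of 54 bases, had 247.0 and 124.4 FPKM with an error of only 0.00508 (log2). The q of the authors' test against lean control was 0.92 for Ighj4 in the tropifexor vehicle group and 0.77 in the OCA vehicle group. For Snord72 it was 0.70 and 0.96 in the same groups. For Mir6392 it was 0.70 and 0.97, and for Gm23017, another called small nucleolar RNA, 0.50 and 0.78. For all 4 genes the errors used here are smaller than these q-values imply, so their calls are doubtful. The 22 called genes that the authors' deposited tables called against lean control in neither vehicle group all lie outside the protein-coding genes. Of 46 tested receptor segments 3 were called, all higher in the tropifexor vehicle group; Igkv3-4 was at 8.76 FPKM in the tropifexor vehicle group and 0.229 FPKM in the OCA vehicle group (difference 5.25), and Ighv1-42 at 5.59 and 0.247 FPKM (difference 4.49). Ighj2, another joining segment, which was not tested, was listed at 0 in the tropifexor vehicle group and at 1245 FPKM in the OCA vehicle group. The constant chains Igkc, at 54.7 and 43.7 FPKM, and Ighm, at 20.2 and 17.6 FPKM, were not called.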

How the data were processed

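Livers were flash frozen, and Trizol RNA went into TruSeq Stranded mRNA libraries, per the labels' protocols. STAR 2.5.1b, Cufflinks 2.2.1, Cuffnorm, Cuffdiff and build GRCm38 are named in the submitters' processing notes; use of strand in counting is not given in the sources. The FPKM values are the authors' deposited group values, per the file headers. The log2 fold change and the test statistic, used as scores, and the p-value and q-value are the authors' deposited output for each gene, per the file headers.

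The ratio of each vehicle group to lean control was taken from 2 of the 10 deposited tables, and 15304 genes had status OK in both. Dropped were genes whose fold change was infinite or differed from the ratio of the FPKM by 0.01 or more (log2), leaving 15230. The standard error of a fold change was the fold change over its statistic, divided by the median ratio of the normal z of the deposited p to that statistic (2.03 in both tables). Variances were added, which counts the lean control although it cancels. Two-sided normal p-values were Benjamini-Hochberg adjusted over all 15230 genes. No exact test could be run without values per animal, so single genes carry intervals and no p. The SD of the resulting z, estimated from its interquartile range, was 0.446, below that of a standard normal, so the test was conservative for most genes. The unadjusted p was under 0.05 in 276 genes (1.81%). The procedure was also run on simulated data with normal noise drawn from the same errors that the test uses. That run could not show whether those errors are right for the real data.

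Named genes were the 12 called genes with the largest and the 12 with the smallest difference at 1 FPKM or more, up to 4 called members of each of 50 gene lists (or, with none called, the member with the largest difference), genes called in opposite directions against lean control, and those called with the wider error. Other list members are examples chosen after their values were seen. The genes and lists were chosen with earlier results of these data known. Coordinates and gene classes come from GENCODE vM21 on GRCm38 and promoters from RefSeq. Python 3.11.15, pandas 2.3.3, numpy 2.4.6, scipy 1.17.1 and matplotlib 3.10.9 were used.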

Additional observations from a re-analysis of the deposited data

Results flagged for a closer look

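For 7 genes the change on the NASH diet relative to lean control was called in opposite directions in the 2 vehicle groups by the authors' deposited tables, and the difference of the 2 changes itself passed the test (adjusted p under 0.05 over all genes). Both criteria use the same 2 ratios, so opposite calls make a called difference likely, and it is no separate support. In the tropifexor vehicle group minus the OCA vehicle group, the log2 difference was -1.88 for Angptl8, -1.80 for Cyp26a1 and -1.65 for Cyp2b9. It was 1.50 for Plk3, 2.42 for Onecut1, 2.50 for Cish and 3.10 for Capn11. Of these, Cyp2b9, Plk3 and Onecut1 also passed with the wider error implied by the test statistics. Capn11 was under 1 FPKM in both vehicle groups.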

How the results depend on the processing

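The number of called genes depended on the error. It was 58 (28 with a positive difference and 30 with a negative one), 15 (8 and 7) with the error not rescaled, and 114 (56 and 58) with the lean control variance left out. The 15 are all among the 58, and 38 of the 58, including 30 of the 31 protein-coding ones, are among the 114; the exception is Capn11, whose group variances could not be solved. Leaving out the lean variance gave more calls in 16 of 50 gene lists and fewer in 0, and 10 lists without a call then had one. Of further genes described as not called, Cyp2a4 and Cyp1a2 were then called lower and Usp18, Isg15 and Hspb1 higher. With protein-coding genes only, an alternative added after seeing the data, 26 were called (12 and 14), and without genes under 200 bases and receptor segments, also added, 30 (15 and 15), in both of which fewer genes were tested. Centring gave 57, a minimum of 1 FPKM 60 and an adjusted p under 0.01 gave 44. The share past 2-fold was 1.56%, and 0.888% with a pseudocount of 1, which shrinks differences of low genes; with the other settings it lay between 1.27% and 2.22%. All 58 called genes kept their sign with vehicle values from the drug tables and with a pseudocount of 1, but neither setting could have changed it. The drug tables hold the same vehicle groups, and the largest shift was 0.0274 (log2). A pseudocount leaves the order of the vehicle values as it was. No paired analysis was possible because the columns carry group values without replicates, and for the same reason no replicate could be left out. Depth per library is unknown.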

Other observations

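Of the genes that could not be tested, 443 had at least 1 FPKM in a vehicle group. Of these, 266 were listed at 0 in one vehicle group, 166 in the tropifexor vehicle group and 100 in the OCA vehicle group, and 265 of the 266 had transcripts under 200 bases. Iron and stress genes not described above showed no call. Tfrc, the transferrin receptor, had 4.28 FPKM in the tropifexor vehicle group and 7.12 FPKM in the OCA vehicle group (difference -0.74, interval -1.31 to -0.18), and Hamp, the iron hormone hepcidin, 1386 and 1296 FPKM. Of 7 sterol efflux genes 6 had negative differences, with a median of -0.16, and Abcg8, a subunit of the sterol transporter of the canaliculus, had 68.5 and 98.4 FPKM in the same groups (difference -0.53, interval -1.11 to 0.05). Of 18 tested major urinary protein genes, which have near-identical copies, 15 were negative, with a median of -0.25, and none was called.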
